A study of Mus musculus with 49 samples.

Results

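The data described here are neocortex transcriptomes of 22 rNLS8 mice, 10 vaccinated with TDP-43 peptides 10 and 12 together (TDP-10+12) and 12 vaccinated with peptide 15 (TDP-15), out of 49 mice sequenced in the series. The mice were chosen by their column labels in the count table, and every mouse of both groups was used. rNLS8 mice are bigenic: the NEFH promoter, active in neurons, drives the tetracycline transactivator tTA, which in the absence of doxycycline switches on a human TDP-43 lacking its nuclear localization signal (tetO-hTDP-43ΔNLS). The genetic background of all groups was mixed, from C57BL/6J x C3H/HeJ. Peptides 10 and 12 come from the glycine-rich low-complexity domain, and peptide 15 carries phosphorylated serines 409 and 410. Each peptide was coupled to ovalbumin and given at 40 µg in total per vaccination with CpG ODN 1668 and Alhydrogel, first at 8 weeks of age. Doxycycline was withdrawn from all mice at 25.5 weeks, and all were sacrificed at 28.5 weeks, 3 weeks later. The TDP-10+12 group held 6 females and 4 males and the TDP-15 group 5 females and 7 males. The other groups were 10 bigenic mice given PBS (TDP-PBS, 4 females and 6 males) and 17 monogenic mice without transgene expression given PBS (ctrl-PBS, 10 females and 7 males). In both PBS groups PBS took the place of the conjugates, and whether the adjuvants were given with it is not stated in the sources used here. The immunized groups therefore differ from TDP-PBS at least by peptide and carrier, whereas carrier and adjuvants were common to TDP-10+12 and TDP-15.

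TDP-43 is an RNA-binding protein that is normally nuclear and regulates splicing and RNA stability. In ALS and FTD it is lost from the nucleus and aggregates in the cytoplasm of neurons, where its C-terminal serines become phosphorylated. Antibodies raised by a vaccine can engage microglia through Fc receptors and complement, and microglia and neurons under stress can raise interferon-stimulated genes, so gene groups for these routes are described beside those for neurons and glia.

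Total counts per mouse ranged from 17775738 to 21033608 with a median of 19955601, and 3 counts corresponded to 0.139 to 0.165 CPM (counts per 1000000 counts, after TMM scaling). Markers of cortical neurons, astrocytes, oligodendrocytes and microglia were present in every mouse, and Xist exceeded Ddx3y in 25 of 25 females and 0 of 24 males. Among TDP-10+12 mice, male 301 stood apart. This mouse had the highest level of all 32 bigenic mice in 1900 genes and the lowest in 1601, and its level lay beyond Dixon's 95% limit within its group in 467 genes on the high side and 412 on the low side, against 3 to 40 and 24 to 131 genes in the other 9 mice. The mouse had 899 counts of Slc6a5, the glycine transporter of brainstem and spinal neurons, whereas mouse 266 of the same group had 122 and the other 8 TDP-10+12 mice had at most 10. Among TDP-15 mice, male 126 had the highest level of the 32 bigenic mice in 1103 genes and the lowest in 735. The other 11 TDP-15 mice had 225 to 905 and 236 to 872 such genes, so mouse 126 exceeded them on the high side only. In TDP-PBS, mouse 26 was highest in 1286 and lowest in 1509 genes, and mouse 91 in 1133 and 962. For many of the results below, though not all, values without mouse 301 or 126 are also given. The part that the tissue taken played in the results was not tested.

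No gene passed an adjusted p of 0.05 between TDP-10+12 and TDP-15 in the edgeR quasi-likelihood fit over all 49 mice (0 of 18220 genes, 0%, smallest adjusted p 0.252). At an unadjusted p under 0.05, 1244 genes differed (6.83%), of which 696 were higher (3.82%) and 548 lower (3.01%) in TDP-10+12. The split depended on the scaling: with library totals only, 48.1% of such genes were higher against 55.9% with TMM. In no gene did the groups fail to overlap, in either direction (0 genes, 0% each). DESeq2 and the edgeR fit restricted to the 22 immunized mice each called 2 genes, Nos1 and Timp2, and the fit without a filter on low counts called Slc6a5 alone. At an unadjusted p under 0.05, DESeq2 gave 895 genes higher and 699 lower, and limma-voom, which called 0 genes, gave 671 and 537.

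The differences were small in most genes. The median absolute log2 fold change was 0.066, and the 95% interval reached 0.18 to either side of the estimate in the median gene. The interval lay within a 1.25-fold difference either way in 59.8% of genes, within 1.5-fold in 80% and within 2-fold in 94.8%. An absolute log2 fold change over 1 was found in 37 genes, 28 of them at an unadjusted p under 0.05. For comparison, TDP-PBS differed from ctrl-PBS at an adjusted p under 0.05 in 7928 genes (43.5%).

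**Figure D1:**
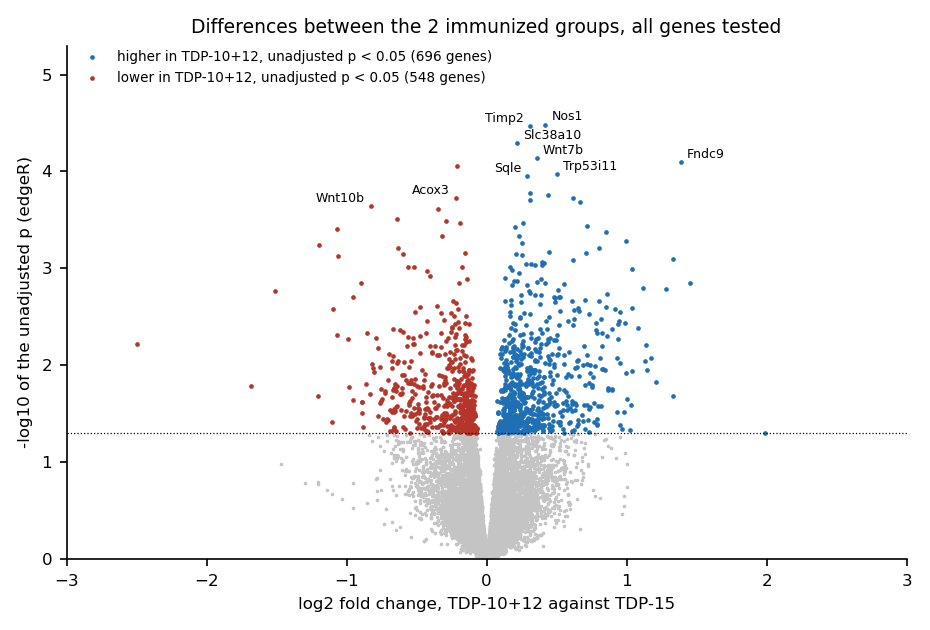
Each point is 1 of 18220 genes, with the log2 fold change of TDP-10+12 against TDP-15 on the x axis and -log10 of the unadjusted edgeR p on the y axis. The 696 genes higher and 548 lower in TDP-10+12 at an unadjusted p under 0.05 (dotted line) are coloured, the 9 labelled genes are among those with the smallest p in their direction, and none passed an adjusted p of 0.05.

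The smallest p belonged to Nos1, which encodes the neuronal nitric oxide synthase and marks a class of cortical interneurons (chr5:117866839-117958840, GRCm38.p6, as are all positions here). Its lowest, median and highest values were 84.8, 100.5 and 118 CPM in TDP-10+12 and 57.4, 77.7 and 90.4 CPM in TDP-15. The level of 9 of the 10 TDP-10+12 mice exceeded that of every TDP-15 mouse, and 11 of the 12 TDP-15 mice lay below every TDP-10+12 mouse (log2 fold change 0.42, 95% interval 0.23 to 0.60, unadjusted p = 3.28e-05, adjusted p = 0.252). The medians were 75.5 CPM in TDP-PBS and 84.6 CPM in ctrl-PBS. In bulk tissue, fewer cells of a type and less RNA per cell cannot be told apart. Timp2, an inhibitor of matrix metalloproteinases (chr11:118301061-118355411), measured 323, 381 and 406 CPM in TDP-10+12 and 265, 297 and 333 CPM in TDP-15 (log2 fold change 0.31, 95% interval 0.17 to 0.45, unadjusted p = 3.41e-05). It overlapped little, with 7 TDP-10+12 mice above the highest TDP-15 mouse. Its medians were 297 CPM in TDP-PBS and 375 CPM in ctrl-PBS, so that TDP-15 lay near TDP-PBS and TDP-10+12 near ctrl-PBS. Slc38a10, a member of the sodium-coupled neutral amino acid transporter family (chr11:120103951-120151351), was higher by a smaller margin, with 66.03, 72.7 and 83.6 CPM in TDP-10+12 and 56.4, 62.5 and 72.9 CPM in TDP-15 (log2 fold change 0.21, 95% interval 0.12 to 0.31, unadjusted p = 5.12e-05). Against TDP-PBS, with its mice shared by both comparisons, the log2 fold changes of Nos1 were 0.35 in TDP-10+12 and -0.065 in TDP-15, those of Timp2 0.31 in TDP-10+12 and -0.006 in TDP-15 and those of Slc38a10 0.17 in TDP-10+12 and -0.049 in TDP-15. Without mouse 301 the differences between the immunized groups were 0.42, p = 5.44e-05 for Nos1, 0.30, p = 9.61e-05 for Timp2 and 0.19, p = 2.43e-04 for Slc38a10.

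The next genes by p on the higher side follow. Wnt7b, a secreted Wnt ligand expressed by cortical neurons (chr15:85535437-85581821), had levels of 35.05, 46.1 and 60.2 CPM in TDP-10+12 and 27.02, 35.8 and 45.7 CPM in TDP-15 (log2 fold change 0.36, 95% interval 0.19 to 0.52, unadjusted p = 7.31e-05). Trp53i11, named for its induction by p53, had 62.02, 87.8 and 145 CPM in TDP-10+12 and 47.5, 61.5 and 93.04 CPM in TDP-15 (log2 fold change 0.50, 95% interval 0.26 to 0.74, unadjusted p = 1.07e-04), and Kcnip3, a calcium sensor that binds Kv4 potassium channels, had 129.9, 152 and 249 CPM in TDP-10+12 and 101, 130.1 and 148 CPM in TDP-15 (log2 fold change 0.31, 95% interval 0.16 to 0.46, unadjusted p = 1.65e-04). The highest level of Wnt7b, Trp53i11 and Kcnip3 was in mouse 301 each time, and without that mouse Kcnip3 differed by 0.22, p = 0.00131. Hpcal4, a neuronal calcium sensor of the visinin-like family, was highest in mouse 242 and measured 428, 533 and 681 CPM in TDP-10+12 and 338, 443 and 517 CPM in TDP-15 (log2 fold change 0.31, 95% interval 0.16 to 0.47, unadjusted p = 1.98e-04). Its medians were 445 CPM in TDP-PBS and 831 CPM in ctrl-PBS, so both immunized groups were below ctrl-PBS. Sertm1, a small membrane protein, measured 12.8, 16.6 and 22.5 CPM in TDP-10+12 and 10.7, 12.3 and 16.5 CPM in TDP-15 (log2 fold change 0.44, 95% interval 0.22 to 0.66, unadjusted p = 1.74e-04). Fndc9, which encodes a protein with a fibronectin type III domain (chr11:46235557-46239871), had the largest log2 fold change of the leading genes, 1.39, with 2.17, 3.68 and 35.03 CPM in TDP-10+12 and 1.496, 2.33 and 4.28 CPM in TDP-15. That value rested on mouse 301, and without this mouse the log2 fold change was 0.55, p = 0.0173. Mouse 266 was next at 9.63 CPM, and the other TDP-10+12 mice had at most 4.57 CPM. The remaining genes among the 12 with the smallest p on this side were the cholesterol gene Sqle, A730056A06Rik (0.62) and AU023762 (0.67).

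On the lower side small p values were found in the following genes. Acox3, a peroxisomal acyl-CoA oxidase (chr5:35582981-35614208), measured 27.7, 37.6 and 39.5 CPM in TDP-10+12 and 35.4, 42.7 and 47.9 CPM in TDP-15 (log2 fold change -0.22, 95% interval -0.33 to -0.11, unadjusted p = 1.89e-04). The ranges overlapped, but 10 of the 12 TDP-15 mice lay above every TDP-10+12 mouse. Wnt10b, another Wnt ligand (chr15:98770712-98778206), measured 1.81, 2.68 and 4.27 CPM in TDP-10+12 and 2.78, 4.598 and 9.68 CPM in TDP-15 (log2 fold change -0.83, 95% interval -1.24 to -0.41, unadjusted p = 2.27e-04), and its medians were 4.08 CPM in TDP-PBS and 1.37 CPM in ctrl-PBS. Among Wnt ligands, Wnt7b was thus higher and Wnt10b lower in TDP-10+12. Of 45 Wnt pathway genes 3 were higher and 4 lower at an unadjusted p under 0.05, beside 3.82% and 3.01% of all genes. Axin2, a common readout of canonical Wnt signalling, was at 0.0097 (95% interval -0.12 to 0.14). Zfas1, a long noncoding RNA that hosts small nucleolar RNAs (chr2:167062934-167065862), had 16.2, 17.7 and 22.9 CPM in TDP-10+12 and 15.7, 23.2 and 30.5 CPM in TDP-15 (log2 fold change -0.32, 95% interval -0.48 to -0.15, unadjusted p = 4.65e-04), and its medians of 21.8 CPM in TDP-PBS and 6.23 CPM in ctrl-PBS placed both immunized groups far above ctrl-PBS. Akt1, a kinase of growth factor signalling, measured 158, 173 and 191 CPM in TDP-10+12 and 174, 196 and 207 CPM in TDP-15 (log2 fold change -0.15, 95% interval -0.24 to -0.067, unadjusted p = 6.97e-04). The 12 genes with the smallest p on the lower side also included C130074G19Rik (-0.35), the melanosome transport adaptor Mlph (-0.64), the phospholipase Plcb4 (-0.29), Ccdc85a (-0.19), Tmem52 (-1.07), Gm41210 (-1.19) and the homeobox gene Sebox (-0.64), all as log2 fold changes. Gm41210 lay near the level of 3 counts in most mice.

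**Figure D2:**
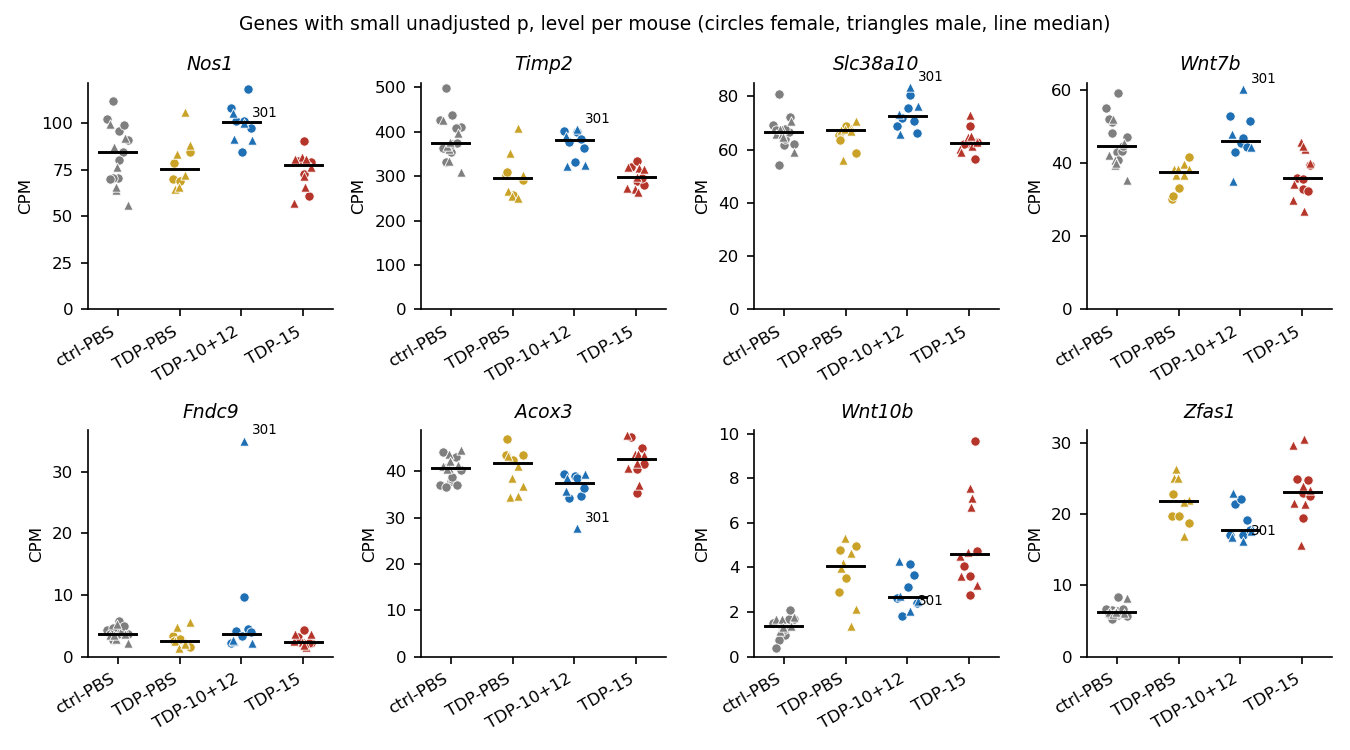
Level of 8 of the leading genes in each of the 49 mice, in CPM on linear axes that start at 0, by group, with circles for females, triangles for males and a line at the median. Of these 8 genes Nos1 had the least overlap between the immunized groups, with 9 of 10 TDP-10+12 mice above every TDP-15 mouse, while the Fndc9 difference rested on mouse 301.

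With all mice, the interferon-stimulated list had the most members lower at an unadjusted p under 0.05. The list of 39, all measured, contains antiviral effectors, sensors and the transcription factors that induce them, and all 39 had a log2 fold change below 0. At an unadjusted p under 0.05, 22 of 39 were lower and 0 higher, beside 3.01% lower among all genes tested, and the median log2 fold change was -0.45, beside -0.0024 over all genes tested. These genes were raised in TDP-PBS against ctrl-PBS, by a median of 2.08 on the log2 scale. The member with the smallest p was Oasl1, with 0.558, 1.63 and 1.9 CPM in TDP-10+12 and 0.908, 2.06 and 6.45 CPM in TDP-15 (log2 fold change -0.90, 95% interval -1.43 to -0.37, unadjusted p = 0.0014). Ifit1, which binds viral RNA, measured 5.18, 16.8 and 34.9 CPM in TDP-10+12 and 13.5, 26.2 and 69.6 CPM in TDP-15 (log2 fold change -0.65, 95% interval -1.19 to -0.12, unadjusted p = 0.017), and its medians were 24.9 CPM in TDP-PBS and 2.56 CPM in ctrl-PBS. In these genes the ranges overlapped broadly. The transcription factor Irf7 (-0.66) and the dynamin-like antiviral Mx1 (-0.76) were also lower at an unadjusted p under 0.05, while the ubiquitin-like Isg15 was at log2 fold change -0.66, 95% interval -1.33 to 0.0083, unadjusted p = 0.0528. Ifit, Oas and Gbp genes have close relatives, so counts may be shared between members.

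For the 3 members that had the smallest p among those whose promoter window holds the core of an interferon response element (GAAA, any 2 bases and GAAA, on either strand, where the other strand reads TTTC, any 2 bases and TTTC), the RefSeq windows of GRCm38.p6 are shown, 250 bases before to 50 after the start site on the gene's strand. Capitals mark each match. They are Ddx58, the RNA sensor RIG-I (-0.51, p = 0.00279, chr4:40239776-40240075, - strand), Rsad2, the antiviral enzyme viperin (-0.82, p = 0.00969, chr12:26456403-26456702, - strand), and Ifit3 (-0.54, p = 0.0142, chr19:34583279-34583578, + strand).
Ddx58: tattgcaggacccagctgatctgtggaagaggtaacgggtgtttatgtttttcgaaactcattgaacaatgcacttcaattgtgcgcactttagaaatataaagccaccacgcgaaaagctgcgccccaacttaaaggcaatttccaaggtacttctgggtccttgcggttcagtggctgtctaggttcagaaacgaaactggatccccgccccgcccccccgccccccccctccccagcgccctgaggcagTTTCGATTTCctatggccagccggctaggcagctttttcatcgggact
Rsad2: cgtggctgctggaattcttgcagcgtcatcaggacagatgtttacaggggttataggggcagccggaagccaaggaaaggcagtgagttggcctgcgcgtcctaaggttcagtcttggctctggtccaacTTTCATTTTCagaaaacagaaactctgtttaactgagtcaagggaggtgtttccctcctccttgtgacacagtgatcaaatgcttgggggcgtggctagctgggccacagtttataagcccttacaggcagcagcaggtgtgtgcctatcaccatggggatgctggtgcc
Ifit3: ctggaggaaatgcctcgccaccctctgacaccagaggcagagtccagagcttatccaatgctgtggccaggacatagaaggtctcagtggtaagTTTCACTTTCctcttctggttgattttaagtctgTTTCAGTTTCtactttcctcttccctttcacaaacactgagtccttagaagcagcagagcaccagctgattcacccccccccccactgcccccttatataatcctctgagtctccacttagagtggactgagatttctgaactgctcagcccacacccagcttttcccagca
These letters occur in 18 of the 28 list members that have a window (64.3%), against 1079 of all 27025 genes with a window (3.99%) and 3.65% of such genes tested. They occur in 9 of the 17 members lower at an unadjusted p under 0.05 that have a window (52.9%) and in 9 of the 11 other members with one (81.8%). A match describes the letters of the window and is not evidence of binding.

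The interferon difference depended on a few mice, and the sexes are given apart. The score per mouse, the mean log2 CPM of the 39 genes minus the ctrl-PBS mean, had its lowest, median and highest values at 0.68, 1.78 and 2.27 in TDP-10+12 and 1.22, 2.19 and 3.43 in TDP-15, beside 1.06, 2.04 and 2.96 in TDP-PBS. The lowest TDP-10+12 mouse was 242 and the highest TDP-15 mouse was 126, and the groups overlapped over most of their range. Without mouse 126, 4 members were lower at an unadjusted p under 0.05 (median -0.29), without mouse 242, 11 were, without mouse 301, 15, and without both 301 and 126, 3 (median -0.26). Without mouse 346 the count was 12, and without mouse 51 or 243 it was 14. Leaving out each mouse in turn gave 4 to 30. The list no longer had the most lower members without mouse 126, when 2 other lists also had 4, without mice 301 and 126, when the lysosome and voltage-gated channel lists had 4 each, or in females. Among females the scores were 1.53, 1.898 and 2.27 in 6 TDP-10+12 and 1.44, 2.15 and 2.49 in 5 TDP-15 mice, and 0 of 39 members were lower at an unadjusted p under 0.05 (median log2 fold change -0.12). Among males the scores were 0.68, 1.501 and 2.26 in 4 and 1.22, 2.502 and 3.43 in 7 mice, and 24 members were lower (median -0.82). Among all genes, 565 of 18623 were lower in females alone and 338 of 18540 in males alone at this threshold. The difference between the sexes was itself tested with an interaction term, which no member passed even at an unadjusted p of 0.05 (0 of 39, median male minus female log2 fold change -0.72). All 39 members had an interaction estimate below 0, beside 8397 of all 17241 genes. The members were measured in the same mice and are not independent results.

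**Figure D3:**
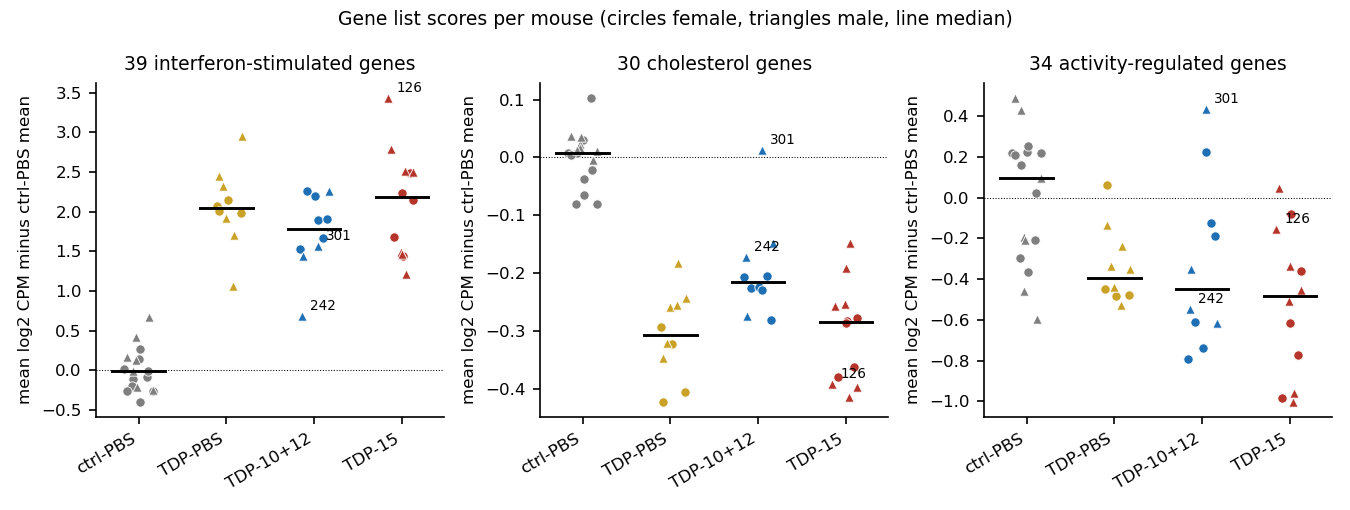
Mean log2 CPM of the 39 interferon-stimulated, 30 cholesterol and 34 activity-regulated genes per mouse, minus the ctrl-PBS mean, by group, with circles for females, triangles for males and a line at the median. The immunized groups overlapped in all 3 scores, with mouse 126 highest and mouse 242 lowest of the immunized mice for interferon, and mouse 301 highest of the bigenic mice for cholesterol and activity-regulated genes.

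The medians of the other immune lists were also below 0. Counts past the unadjusted threshold were unsteady in most lists, the interferon-stimulated and cholesterol lists included. In 44 of 51 lists a count moved by over 1.5 times when 1 mouse was left out, where any rise from 0 also counted. Of 20 complement genes, 5 were lower and 0 higher at an unadjusted p under 0.05, beside 3.01% lower among all genes tested (median -0.21): Itgax, the complement receptor subunit CD11c (-1.09), the proteases C1s1 and C1ra (-0.59 and -0.56), the C3a receptor C3ar1 (-0.35) and C4b (-0.38). C4b measured 158, 319.8 and 494 CPM in TDP-10+12 and 176, 412 and 801 CPM in TDP-15, with medians of 410.4 CPM in TDP-PBS and 59.2 CPM in ctrl-PBS. The initiating component C1qa (-0.20, 95% interval -0.50 to 0.10) and C3 (-0.41, 95% interval -1.05 to 0.22) had intervals that included 0. Itgax reached 22.4 CPM in mouse 126, with a median of 3.83 CPM in TDP-15 and 2.35 CPM in TDP-10+12, and without mouse 126 it was at -0.65, p = 0.0357. Without mouse 126 or without mouse 242, 3 complement genes were lower at an unadjusted p under 0.05, and without mice 301 and 126, 1 was.

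For receptors that bind IgG the intervals included 0. Of 14 Fc receptor and antibody handling genes tested, 1 was lower at an unadjusted p under 0.05, beside 3.01% of all genes. Without mouse 301, 2 were lower, and without mouse 126, 0. The activating receptors Fcgr1 and Fcgr3 were at -0.24 (95% interval -0.54 to 0.066) and 0.054 (95% interval -0.23 to 0.34), the inhibitory receptor Fcgr2b at 0.0063 (95% interval -0.32 to 0.34), the neonatal receptor Fcgrt at 0.09 (95% interval -0.066 to 0.25), and the cytosolic antibody receptor Trim21 at -0.30 (95% interval -0.68 to 0.079). Fcgr4 had at most 17 counts in TDP-10+12 and 16 in TDP-15 and was not tested. Lymphocyte genes were near the limit of detection: Cd3e had at most 8 counts in a TDP-10+12 mouse and 5 in a TDP-15 mouse, Cd8a at most 5 in either group, and Nkg7 at most 10 and 12. Of 30 T and NK cell genes 5 could be tested, and of 20 immunoglobulin, B and plasma cell genes 3, with 0 at an unadjusted p under 0.05.

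Lists of antigen presentation and inflammatory mediators had few members past the unadjusted threshold. Among all genes tested, 3.01% were lower at that threshold. Among 17 MHC class I genes 3 were lower: H2-K1 with 17.8, 36.7 and 73.2 CPM in TDP-10+12 and 17.7, 57.8 and 137 CPM in TDP-15 (log2 fold change -0.65, 95% interval -1.18 to -0.11, unadjusted p = 0.0183), H2-D1 (log2 fold change -1.103, 95% interval -2.15 to -0.059, unadjusted p = 0.0388) and the peptide loading factor Tapbp (-0.28). H2 genes are polymorphic and near-identical to one another, and these mice had a mixed background, so their counts are uncertain. Without mouse 51, 126 or 266, 1 class I gene was lower. Without mice 301 and 126, 0 were (median -0.018, beside -0.16 with all mice). Of 14 MHC class II genes 1 was lower (Ifi30, -0.35), with the invariant chain Cd74 at -0.33 (95% interval -1.01 to 0.35). Of 21 chemokines and cytokines 2 were lower, Ccl3 (-0.64) and Csf1 (-0.18), and Ccl2 (log2 fold change -0.64, 95% interval -1.29 to 0.0088, unadjusted p = 0.0531) and Cxcl10 (log2 fold change -0.61, 95% interval -1.25 to 0.031, unadjusted p = 0.0616) had wide intervals. Tlr9, the receptor for CpG DNA such as the adjuvant, measured 1.83, 2.51 and 3.14 CPM in TDP-10+12 and 1.74, 3.06 and 7.11 CPM in TDP-15 (log2 fold change -0.37, 95% interval -0.69 to -0.042, unadjusted p = 0.0278), and without mouse 126 it was at -0.20, p = 0.158. Of 20 Toll-like receptor genes, Tlr9 and Cd14 (-0.40) were lower with all mice. Without mouse 301, 3 of the 20 were lower, and without mouse 126, 0.

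In the list of 30 disease-associated microglia genes, 6 were lower and 1 higher at an unadjusted p under 0.05, beside 3.01% and 3.82% of all genes tested (median -0.11), the higher being Timp2 and the lower being Itgax, the adaptor Tyrobp (-0.30), the cathepsins Ctsl (-0.14) and Ctsz (-0.22), Csf1 and Ank (-0.10). The receptor Trem2 was at -0.13 (95% interval -0.41 to 0.15), the lectin Clec7a at -0.48 (95% interval -1.05 to 0.09), Cst7 at -0.34 (95% interval -0.95 to 0.26) and Apoe at 0.028 (95% interval -0.12 to 0.18). Without mouse 242, 3 genes of the disease-associated list were lower, without mouse 184, 11, without mouse 126, 4, and without mice 301 and 126, 2. None of 25 homeostatic microglia genes reached an unadjusted p under 0.05, with P2ry12 at -0.03 (95% interval -0.16 to 0.10) and Tmem119 at -0.12 (95% interval -0.30 to 0.065). 

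Of 40 lysosomal genes 7 were lower and 0 higher at an unadjusted p under 0.05, beside 3.01% and 3.82% of all genes tested, and the median was -0.06. The 7 included progranulin Grn, a gene mutated in FTD (log2 fold change -0.21, 95% interval -0.37 to -0.042, unadjusted p = 0.0148), Ctsz, Ctsl, Ctsf (-0.11) and the cholesterol transporter Npc1 (-0.12). Grn measured 46.7, 68.4 and 79.9 CPM in TDP-10+12 and 54.9, 77.6 and 112 CPM in TDP-15, and the highest TDP-15 value was in mouse 126. Without mouse 126, 2 lysosomal genes were lower at an unadjusted p under 0.05, without mouse 242, 3, and without mouse 243, 277 or 301, 4 each. The general lysosomal membrane protein Lamp1 was at -0.04 (95% interval -0.12 to 0.039).

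Reactive astrocyte genes depended on mice 301 and 126. Gfap, the intermediate filament of reactive astrocytes, measured 181, 299 and 1133 CPM in TDP-10+12 and 198, 347 and 585 CPM in TDP-15, and the next highest TDP-10+12 mouse had 384 CPM. With all mice Gfap was at log2 fold change 0.065, 95% interval -0.33 to 0.46, unadjusted p = 0.743, and without mouse 301 at -0.29, p = 0.0644. Serpina3n, an acute phase protease inhibitor, measured 24.7, 41.4 and 266 CPM in TDP-10+12 and 26.8, 61.6 and 189.9 CPM in TDP-15, with 266 CPM in mouse 301. It was at log2 fold change -0.088, 95% interval -0.64 to 0.46, unadjusted p = 0.7499 with all mice and at -0.69, p = 0.00173 without mouse 301. With all mice, 2 of 29 reactive astrocyte genes were higher and 1 lower, beside 3.82% and 3.01% of all genes tested. The median of the list was 0.023. Without mouse 301, 0 were higher and 3 lower (median -0.14), without mouse 126, 3 and 0 (median 0.13), and without both, 1 and 1 (median 0.0043). Of 25 homeostatic astrocyte genes 1 was higher and 0 lower, with the glutamate transporters Slc1a2 at 0.051 (95% interval -0.10 to 0.21) and Slc1a3 at 0.056 (95% interval -0.057 to 0.17).

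With all mice, cholesterol synthesis and uptake was the list with the most members on the higher side: 10 of 30 genes were higher and 0 lower at an unadjusted p under 0.05 (median 0.11), beside 3.82% higher among all genes tested. For TDP-PBS against ctrl-PBS these genes had a median log2 fold change of -0.38. Squalene epoxidase Sqle measured 22.2, 27.1 and 33.8 CPM in TDP-10+12 and 17.2, 22.2 and 28.1 CPM in TDP-15 (log2 fold change 0.29, 95% interval 0.15 to 0.43, unadjusted p = 1.11e-04), with medians of 22.4 CPM in TDP-PBS and 38.3 CPM in ctrl-PBS. Hmgcs1, which makes HMG-CoA early in the pathway, was at log2 fold change 0.22, 95% interval 0.061 to 0.38, unadjusted p = 0.00801. The regulator Srebf2 was at log2 fold change 0.12, 95% interval 0.037 to 0.20, unadjusted p = 0.00545. Others were Fdft1 (0.22), Dhcr7 (0.16), Msmo1 (0.23), Mvd (0.16), Cyp51 (0.22) and Fdps (0.14). The scores were -0.28, -0.22 and 0.013 in TDP-10+12, -0.41, -0.29 and -0.15 in TDP-15 and -0.42, -0.31 and -0.18 in TDP-PBS. Mouse 301 was highest and close to the ctrl-PBS mean. Without it 5 members were higher, with Sqle at 0.25, p = 5.73e-04, and the oligodendrocyte precursor list then had more (7). Leaving out each mouse in turn gave 5 to 13, and without mice 301 and 126 the count was 4.

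Activity-regulated genes, which neurons switch on within minutes to hours of firing, had 9 of 34 members higher and 0 lower at an unadjusted p under 0.05, beside 3.82% higher among all genes tested (median 0.14). These were Nptx2, a pentraxin that clusters glutamate receptors, Inhba (0.92), Ptgs2 (0.82), the transcription factors Egr2 (1.14), Egr3 (0.35), Egr4 (0.43), Fosb (0.69), Nr4a2 (0.39) and Jun (0.23). Nptx2 measured 14.1, 21.3 and 73.4 CPM in TDP-10+12 and 11.5, 16.8 and 23.3 CPM in TDP-15 (log2 fold change 0.85, 95% interval 0.40 to 1.301, unadjusted p = 4.17e-04), with medians of 16.9 CPM in TDP-PBS and 37.2 CPM in ctrl-PBS, and without mouse 301 it was at 0.61, p = 0.00544. The most commonly used members had intervals that included 0: Fos at 0.30 (95% interval -0.37 to 0.97), Egr1 at 0.28 (95% interval -0.17 to 0.73), Arc at 0.11 (95% interval -0.49 to 0.71), Npas4 at 0.23 (95% interval -0.22 to 0.68) and Bdnf at 0.27 (95% interval -0.075 to 0.61). Scores were -0.79, -0.45 and 0.43 in TDP-10+12 and -1, -0.48 and 0.047 in TDP-15. Without mouse 301, 3 members were higher at an unadjusted p under 0.05, without mouse 266, 5, and without mice 301 and 126, 4.

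Genes around Nos1 were also described. Of 23 genes of nitric oxide and cyclic GMP signalling 6 were higher and 0 lower at an unadjusted p under 0.05, beside 3.82% higher among all genes tested (median 0.08): Nos1, the cyclic GMP-dependent kinase Prkg2 (0.45), the phosphodiesterases Pde2a (0.13), Pde9a (0.23) and Pde1a (0.13), and Ddah1, which clears an inhibitor of nitric oxide synthases (0.17). The count was 5 to 8 when single mice were left out. Nos1ap, an adaptor of Nos1, was at -0.094 (95% interval -0.24 to 0.047). Of 36 interneuron genes 4 were higher, beside 3.82% of all genes tested, namely Nos1, Reln (0.26), Crhbp (0.32) and Sst. Somatostatin (Sst), which is made by the interneurons that also contain Nos1, measured 214, 251 and 287 CPM in TDP-10+12 and 199, 222 and 253 CPM in TDP-15 (log2 fold change 0.15, 95% interval 0.023 to 0.28, unadjusted p = 0.0219), and its receptor Sstr2 measured 14, 17.3 and 27.7 CPM in TDP-10+12 and 8.39, 13.3 and 19.7 CPM in TDP-15 (log2 fold change 0.39, 95% interval 0.17 to 0.62, unadjusted p = 8.55e-04). The GABA-synthesizing enzyme Gad1 was at 0.12 (95% interval -0.071 to 0.30), Vip at -0.024 (95% interval -0.27 to 0.23) and Pvalb at -0.19 (95% interval -0.42 to 0.035).

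Structural and synaptic genes of neurons were described by list. Neurofilament light chain Nefl measured 87.6, 122 and 147 CPM in TDP-10+12 and 104, 118 and 152 CPM in TDP-15, with medians of 126 CPM in TDP-PBS and 250.4 CPM in ctrl-PBS, and differed by -0.021 on the log2 scale (95% interval -0.14 to 0.10) between the immunized groups. Nefm and Nefh were at -0.03 (95% interval -0.18 to 0.12) and -0.066 (95% interval -0.23 to 0.10). Of 39 presynaptic genes 6 were higher and 1 lower at an unadjusted p under 0.05, beside 3.82% and 3.01% of all genes tested, with Syt1 at -0.0067 (95% interval -0.22 to 0.20) and Snap25 at -0.091 (95% interval -0.19 to 0.0026). Of 55 postsynaptic genes 2 were higher, among them the AMPA receptor subunit Gria1 (log2 fold change 0.16, 95% interval 0.051 to 0.27, unadjusted p = 0.00492), with Dlg4 at 0.05 (95% interval -0.071 to 0.17). Among 52 voltage-gated channel genes 2 were higher and 2 lower, among them the sodium channel Scn1a (log2 fold change -0.15, 95% interval -0.29 to -0.019, unadjusted p = 0.0257). Of 30 genes of excitatory cortical layers 7 were higher and 3 lower, a larger share than among all genes on either side, with the smallest p on the higher side in Necab1 (0.17). Without mouse 242, 3 of these were higher and without mouse 337, 4, and without mouse 54, 126 or 261, 1 was lower. Axon injury genes went both ways: of 25, 5 were higher, among them Gap43 (0.19) and Sox11 (0.38), and 2 lower, Csf1 and the injury-induced factor Atf3 (log2 fold change -0.49, 95% interval -0.94 to -0.048, unadjusted p = 0.0306). Without mouse 301, 4 axon injury genes were higher and 3 lower, without mouse 126, 6 and 0, and without both, 3 and 2.

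Of 20 oligodendrocyte precursor genes 7 were higher and 0 lower at an unadjusted p under 0.05, beside 3.82% higher among all genes tested, and the median was 0.11. The count was 6 to 9 when each mouse was left out in turn and 7 without mice 301 and 126. It was 2 in females and 3 in males alone, where fewer mice entered, beside 600 of 18623 and 366 of 18540 among all genes. The growth factor receptor Pdgfra measured 25.4, 32.8 and 35.2 CPM in TDP-10+12 and 20.4, 28.6 and 36 CPM in TDP-15 (log2 fold change 0.17, 95% interval 0.028 to 0.31, unadjusted p = 0.0199), and the proteoglycan Cspg4 was at 0.18 (95% interval 0.018 to 0.34). Others were Cacng4 (0.28), Neu4 (0.25), C1ql1 (0.24) and Mmp15 (0.20). Of 29 myelin genes 2 were lower, and 12 in females and 0 in males alone, with Mbp at -0.15 (95% interval -0.35 to 0.062). Among all genes, 565 of 18623 were lower in females alone and 338 of 18540 in males alone. For the interaction of antigen and sex, 0 of the 29 passed an adjusted p of 0.05. At an unadjusted p under 0.05, 4 had a positive and 0 a negative interaction, beside 300 and 309 of 17241 genes. The median male minus female log2 fold change of the list was 0.32. The matrix list, which includes Timp2, had 8 of 42 genes higher and 0 lower, beside 3.82% and 3.01% of all genes tested. Among the 8 were tenascin C Tnc (0.81) and lysyl oxidase Lox (0.94). Timp3 was at 0.045 (95% interval -0.12 to 0.21), Mmp2 at -0.16 (95% interval -0.44 to 0.12) and Mmp14 at 0.089 (95% interval -0.20 to 0.37). Without mouse 301, 6 matrix genes were higher and 1 lower (median 0.0035, beside 0.027 with all mice). Without mouse 126 the counts were 8 and 0, and without both mice 6 and 0. Of 24 pericyte, smooth muscle and fibroblast genes 3 were higher, which became 1 without mouse 261 or 313, 5 without mouse 243, 269, 301 or 328, and 6 without mouse 126. The fibroblast proteoglycan Dcn measured 15.1, 23.1 and 31.5 CPM in TDP-10+12 and 8.05, 13.2 and 20.8 CPM in TDP-15 (log2 fold change 0.71, 95% interval 0.32 to 1.105, unadjusted p = 6.93e-04), with 6 of 10 TDP-10+12 mice above every TDP-15 mouse.

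No difference was detected in Tardbp, the mouse counterpart of the gene in the transgene. Tardbp measured 106, 122 and 142 CPM in TDP-10+12 and 103, 119 and 135 CPM in TDP-15 (log2 fold change 0.032, 95% interval -0.074 to 0.14, unadjusted p = 0.549). How the counting treated transcripts of the human transgene is not given in the sources used here. Prnp, raised in TDP-PBS against ctrl-PBS by 1.04 on the log2 scale, measured 803, 1021 and 1674 CPM in TDP-10+12 and 905, 997 and 1128 CPM in TDP-15, with its highest value in mouse 301, and was at 0.065 (95% interval -0.07 to 0.20) between the immunized groups. Of 42 TDP-43, ALS and stress granule genes 4 were lower and 0 higher at an unadjusted p under 0.05. The shares of all genes tested were 3.01% and 3.82%. The autophagy receptor Optn was at log2 fold change -0.16, 95% interval -0.30 to -0.022, unadjusted p = 0.0244. Without mouse 301, 2 genes of the list were lower and 1 higher. The medians of the stress lists were near 0: 1 of 35 integrated stress response genes was higher and 1 lower, with Ddit3 at -0.17 (95% interval -0.37 to 0.036) and Atf4 at -0.033 (95% interval -0.17 to 0.11), and 0 of 24 heat shock genes reached an unadjusted p under 0.05. Of 85 cytosolic ribosomal protein genes 1 was higher and of 79 oxidative phosphorylation genes 1 was lower.

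Genes of neighbouring tissue and blood had wide ranges within both groups. The shares of all genes tested at an unadjusted p under 0.05 were 3.82% higher and 3.01% lower. Of 9 hippocampal genes 4 were higher at an unadjusted p under 0.05, among them C1ql2, a synaptic organizer of the dentate gyrus, with 2.49, 5.25 and 8.88 CPM in TDP-10+12 and 1.37, 2.46 and 5.03 CPM in TDP-15 (log2 fold change 0.99, 95% interval 0.45 to 1.53, unadjusted p = 5.21e-04), although the dentate marker Prox1 was at -0.062 (95% interval -0.21 to 0.085). Without mouse 301, 3 hippocampal genes were higher and 1 lower, and without mice 301 and 126, 2 and 0. None of 12 striatal or 11 choroid plexus genes reached an unadjusted p under 0.05, and all were above 0 with all mice. The choroid plexus direction turned without TDP-10+12 mouse 51, when 3 of 11 were above 0 (median -0.21, beside 0.49 with all mice). Without TDP-15 mouse 243, 6 choroid plexus genes were higher at an unadjusted p under 0.05 (median 1.18), as were 6 in females alone, beside 600 of all 18623 genes tested in females. The choroid plexus markers Ttr and Kl summed to between 18.5 and 1659 CPM in TDP-10+12 and between 8.93 and 1519 CPM in TDP-15. Of 7 blood genes 3 were higher, which became 1 without mouse 51, 54, 130, 184, 214, 243, 254, 301 or 328 and 1 without mice 301 and 126, with the haemoglobin gene Hbb-bs at 6.07, 22.8 and 101 CPM in TDP-10+12 and 6.27, 13.4 and 48.1 CPM in TDP-15 (log2 fold change 0.95, 95% interval 0.037 to 1.87, unadjusted p = 0.0418). The part that dissection and residual blood played in the other results was not tested.

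**Figure D4:**
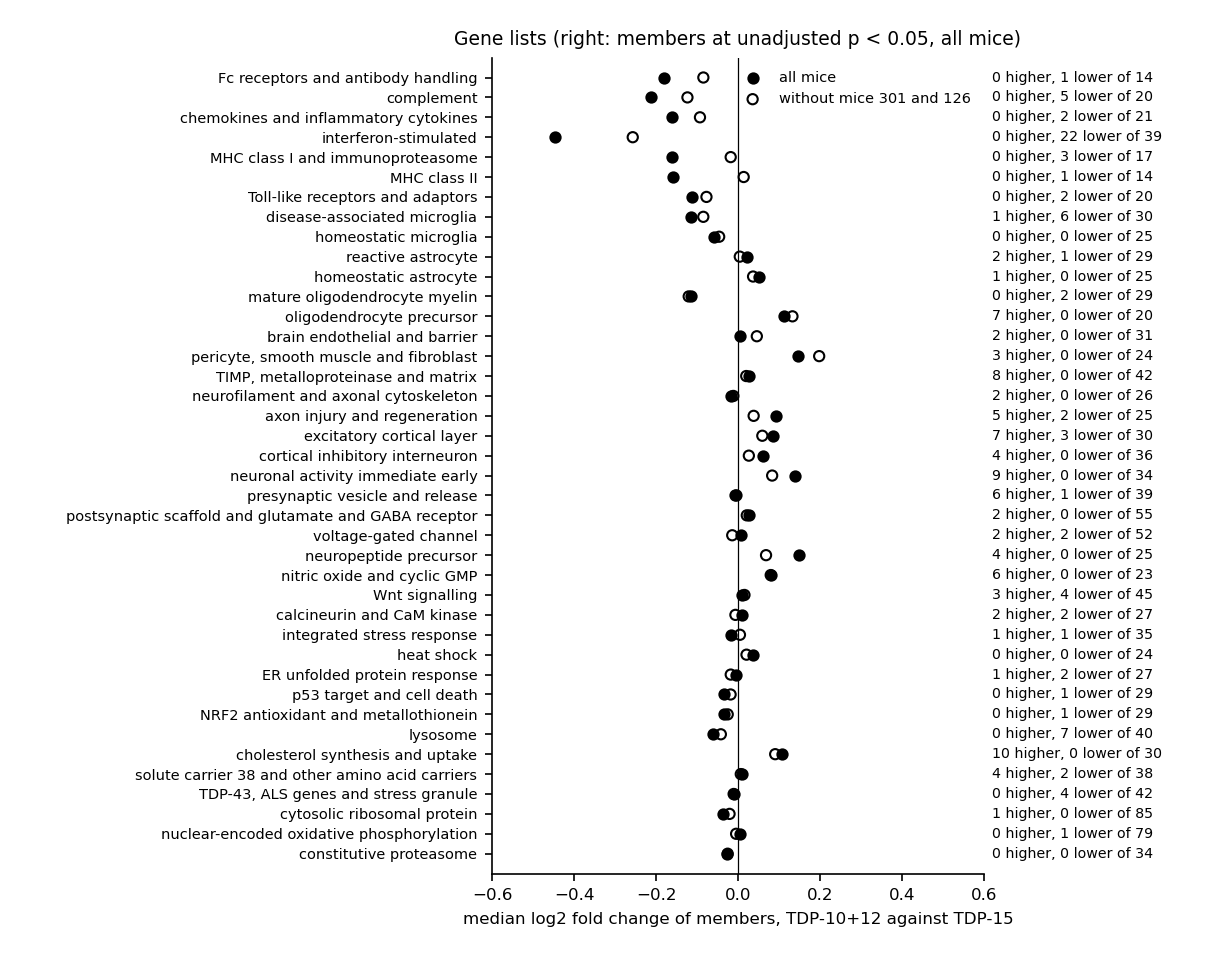
Median log2 fold change of the members of each gene list with at least 14 members tested, TDP-10+12 against TDP-15, with all mice (filled) and without mice 301 and 126 (open), and to the right the members higher and lower at an unadjusted p under 0.05 with all mice. The interferon-stimulated list had the lowest median, -0.45 with all mice and -0.26 without the pair.

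With all mice, genes altered by TDP-43 expression tended to differ in the direction opposite to the change in TDP-PBS. Of 3996 genes raised in TDP-PBS against ctrl-PBS at an adjusted p under 0.05, 218 were lower (5.46%) and 41 higher (1.03%) in TDP-10+12 than in TDP-15 at an unadjusted p under 0.05, and 66.2% had a log2 fold change below 0 (median -0.030). Of 3932 lowered genes, 301 were higher (7.66%) and 73 lower (1.86%), and 39.4% were below 0 (median 0.019). Among 10292 genes not called in TDP-PBS, 354 were higher (3.44%) and 257 lower (2.5%). Genes raised more than 2-fold had a median of -0.22, with 53 of 349 lower and 2 higher. Genes lowered more than 2-fold had 17 of 142 higher and 2 lower. No mouse is common to both comparisons. Across the 7928 genes called in TDP-PBS, which are not independent replicates, Pearson's r between the log2 fold changes was -0.40 and Spearman's rho -0.33, and across all 18220 genes they were -0.23 and -0.20.

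At the level of mice the difference did not exceed the spread. A score that weights the 7928 genes by their TDP-PBS change, with 0 at the ctrl-PBS mean and 1 at the TDP-PBS mean, was 0.872 ± 0.131 in TDP-10+12 (SD, n = 10) and 0.969 ± 0.167 in TDP-15 (SD, n = 12). The lowest, median and highest mice were 0.579, 0.918 and 1.01 in TDP-10+12, 0.745, 0.917 and 1.37 in TDP-15, and 0.861, 1.005 and 1.12 in TDP-PBS. The medians of the immunized groups were nearly equal, the lowest mouse was 242 and the highest 126. The difference of the means was -0.096 (two-sided permutation test, p = 0.161), and leaving out each mouse in turn gave differences of -0.116 to -0.060. The smallest differences were those without mouse 126 (-0.060) and without mouse 242 (-0.063). Among females it was -0.054 (exact permutation p = 0.403) and among males -0.142 (exact permutation p = 0.300).

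**Figure D5:**
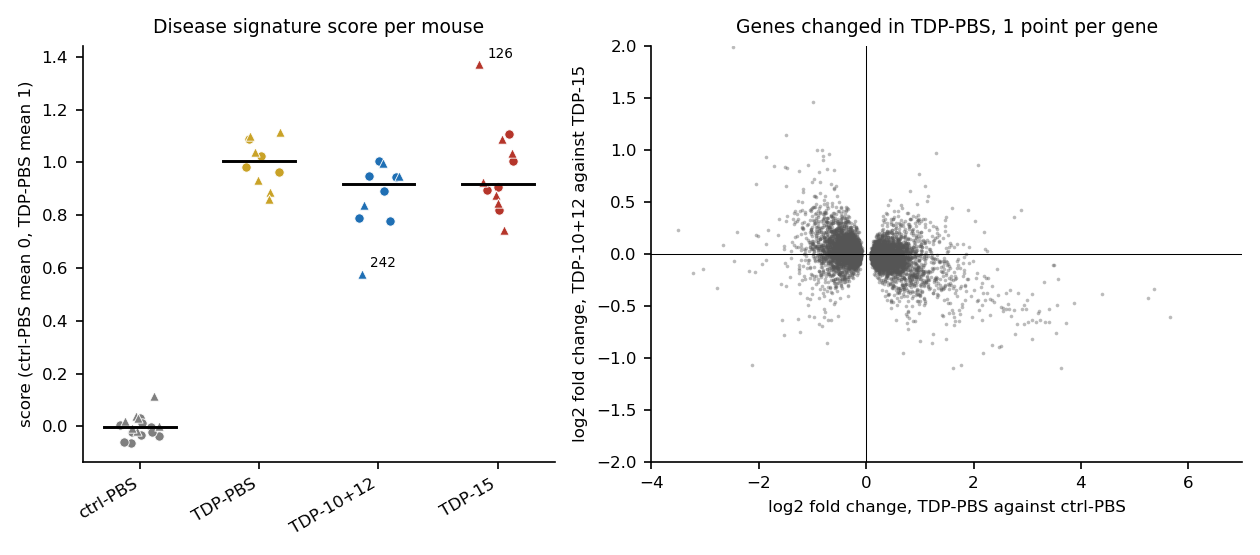
Left, score of the TDP-43 expression signature per mouse, with 0 at the ctrl-PBS mean and 1 at the TDP-PBS mean, circles for females, triangles for males and a line at the median; right, log2 fold changes of the 7928 genes changed in TDP-PBS, against ctrl-PBS on the x axis and between TDP-10+12 and TDP-15 on the y axis. The medians of the immunized groups were 0.918 and 0.917, and across genes Pearson's r was -0.40.

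The leading axes of variation among the 22 immunized mice did not separate the antigens. The first principal component of the 500 most variable genes held 18.3% of the variance and was led by Xist and genes of the Y chromosome, and the second held 14.2%. Group means differed by 0.040 on the first and 0.970 on the second component, with an adjusted permutation p of 0.984 for each. The difference between antigens was also compared between sexes. No gene passed an adjusted p of 0.05 for the interaction of antigen and sex in edgeR (0 of 17241, smallest adjusted p 0.99993), and 609 genes did at an unadjusted p of 0.05 (3.53%), while limma-voom called 0 genes, with 613 at an unadjusted p under 0.05.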

How the data were processed

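Neocortex RNA of 49 mice was sequenced with 100 bp paired-end reads on DNBSEQ, 1 library per animal, and the mice were grouped by their labels. The authors deposited whole-number gene counts for all mice in 1 table. The study's methods name GRCm38.p6 as the reference, and the submitters' processing notes list HISAT, HISAT2, Bowtie, Bowtie2, RSEM and mm10 without roles; the counting settings, strand included, are not given in the sources used here, so genes that overlap or share sequence may share counts. All 45252 symbols matched the RefSeq gene table of GRCm38.p6, which gave the positions.

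Counts were scaled by TMM and filtered with filterByExpr by group (minimum count 10, minimum total 15), which kept 18220 genes. A quasi-likelihood model without covariates was fitted to all 49 mice with edgeR 4.0.16 in R 4.3.3, and TDP-10+12 was compared with TDP-15 by a two-sided test with Benjamini-Hochberg adjustment over all genes tested and a threshold of 0.05. Intervals are 95% intervals from the same fit, and TDP-PBS was compared with ctrl-PBS in it. Levels are CPM on TMM-scaled library sizes, and the low end of measurement was set at 3 counts. The signature score and principal components were compared by two-sided permutation tests with 100000 resamples, or exact tests within a sex. Floors and totals cover counting error only. Gene lists were described by counts and medians, with no test of a list.

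Named genes were the 12 with the smallest p in each direction, core genes of each list, the member of a list with the smallest p below 0.05 in each direction, genes called under an alternative, and checks. Some genes that met these rules are not reported here. Other list members named for an unadjusted p under 0.05, and the genes of the promoter windows beyond those, were chosen after their values were seen. The gene lists and the comparison were chosen with earlier results of these data known. The scripts were tested on simulated data. Alternatives were other scalings (DESeq2 1.42.0 size factors, upper quartile, library totals), no filter, a stricter filter that asked for 10 counts per mouse throughout, adding sex to the model, 22 or 32 mice only, limma-voom (limma 3.58.1), DESeq2, 2 surrogate variables (sva 3.50.0), each sex alone and each mouse left out. Leaving out mice 301 and 126 together was added after seeing the data.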

Additional observations from a re-analysis of the deposited data

Results flagged for a closer look

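Values of the TDP-10+12 group given above were compared within the group by Dixon's rule, under which the highest or lowest of 10 mice is marked when its gap to the next exceeds 0.466 of the range. Of 39 such checks 11 were marked, and 7 of the 11 were values of mouse 301. The nominal rate of about 1 in 20 is not a yardstick here, because genes were named partly for a small p or after their values were seen. Over all genes, too, mouse 301 was marked most often, 467 times as highest and 412 as lowest. The other mice of the group had 3 to 40 and 24 to 131 such marks. Checks of many genes in the same mice are not independent. In mouse 301 the levels were 35.03 CPM for Fndc9, 1133 CPM for Gfap, 249 CPM for Kcnip3, 1674 CPM for Prnp and 266 CPM for Serpina3n, all the highest of their group. Acox3 was lowest in mouse 301 at 27.7 CPM, and the cholesterol gene score of this mouse, 0.0126, was the highest of its group. Hbb-bs was highest in mouse 130 at 101 CPM. Mouse 242 was lowest in Grn at 46.7 CPM, in the interferon-stimulated score at 0.68 and in the signature score at 0.579. The causes were not tested.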

How the results depend on the processing

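The number of genes at an adjusted p under 0.05 was 0 with each mouse left out, with every other scaling, with sex as a covariate, in each sex alone, with limma-voom and with 2 surrogate variables. It was 1 without the filter on low counts, 2 with only the 22 immunized mice and 2 with DESeq2, where the adjusted p of Nos1 and Timp2 was 0.0166 (22 mice) and 0.0443 (DESeq2), beside 0.252 in the fit of all mice. In the 22-mouse fit the spread is estimated from these groups alone. Genes higher and lower at an unadjusted p under 0.05 numbered 1586 and 1266 without the filter, where more genes were tested. They numbered 600 and 565 in females alone and 366 and 338 in males alone, where fewer mice entered. With each mouse left out they numbered 595 to 816 and 427 to 666. The 22 interferon-stimulated genes became 13 with only the 22 immunized mice, 13 with only the 32 bigenic mice, 12 with limma-voom, 0 in females and 3 without mice 301 and 126, with 4 to 30 when each mouse was left out. The 10 cholesterol genes became 4 in females and 4 without mice 301 and 126, with 5 to 13 when each mouse was left out. The 9 activity-regulated genes became 3 with limma-voom, 4 in females, 4 in males and 4 without mice 301 and 126, with 3 to 10 when each mouse was left out. The signature difference was -0.116 to -0.060 with each mouse left out and -0.111 to -0.054 or, in males, -0.142 in the other settings. The adjusted permutation p of the differences on the first and second principal components was 0.135 or higher in the settings run. List medians moved by over the spread between mice in 3 of 1833 comparisons. No single gene whose 95% interval excluded 0 with all mice changed sign, whereas 26 of the 141 genes, all with an interval that included 0 and Gfap among them, did in at least 1 setting. Most settings left out 1 mouse or rescaled the counts, which can move a median or a clear sign only a little. These tallies therefore cannot show that a result is steady, and in 44 of 51 lists a count moved by over 1.5 times without 1 mouse. No paired analysis was possible because mice carry animal numbers that no 2 groups share.

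Limits. With 10 and 12 mice, the 95% interval lay within a 1.25-fold difference in 59.8% of genes, and in the other genes it reached beyond that size. Sexes were unevenly divided between the groups. No group given carrier and adjuvants alone was analysed here, so what is common to both immunized groups cannot be told apart from effects of these. Samples are whole neocortex, and cell composition was not measured apart from expression. Unadjusted p-values are a description, and the causes of the changes between settings were not tested.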
